A study of Mus musculus with 18 samples.

Results

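Immediate early transcription factors are the nuclear proteins whose genes are switched on within minutes of neuronal firing. The set described here was a list of 10 such genes: Fos, Fosb, Jun, Junb, Egr1, Egr2, Egr3, Egr4, Npas4 and Ier2. All array features (probe sets) that carry 1 of these symbols were taken, 13 of 45101 probe sets, or 10 of 18194 named genes. Expression was measured in mouse hippocampus, 1 array per sample, in 3 groups of 6: aged and impaired in spatial memory, aged and unimpaired, and young, the last also labelled unimpaired in spatial memory. The series sets poor against good spatial memory. Not given in the sources used here are the strain, exact age and sex, any treatment, the hour of collection, and the time since the last behavioural test, which bears on genes induced within minutes. The labels also leave unsaid whether 1 animal gave 1 sample, so a p-value here speaks only of the spread over these samples, which may in part be technical.

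Calcium entry through synaptic receptors and channels activates kinases that phosphorylate CREB and the partners of serum response factor, which sit on the promoters of these genes and need no new protein to start transcription. Fos and Jun proteins pair through leucine zippers to form AP-1, Egr proteins bind GC-rich sites through zinc fingers, and Npas4 is a neuronal basic helix-loop-helix factor. The transcripts are short-lived, and Fos and Egr1 are widely used in the hippocampus to mark recently active neurons.

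The promoters are shown first, as the place where CREB and serum response factor are known to act. RefSeq windows (assembly GRCm38.p6) of 300 bases, 250 before and 50 after a transcript start, were matched by symbol. Member windows on a single chromosome were then left out, while the shares over all windows given below kept that chromosome. A member without a searched window may thus have had one that was left out. This left 7 of the 10 members, in 11 windows. No window of Egr1, Egr3 or Ier2 was searched, so their promoters are not described. The 250 bases before the start are printed for Fos, for Junb, for Npas4, whose signal varied most between samples, and for Jun, whose correlation with Fos was negative. They lie at chr12:85473640-85473889 on the plus strand for Fos, chr8:84978749-84978998 on the minus strand for Junb, chr19:4989972-4990221 on the minus strand for Npas4 and chr4:95052223-95052472 on the minus strand for Jun. Each reads 5′ to 3′ along the gene, and capitals mark the CREB core letters TGACG, or CGTCA where the match is on the opposite strand.
Fos: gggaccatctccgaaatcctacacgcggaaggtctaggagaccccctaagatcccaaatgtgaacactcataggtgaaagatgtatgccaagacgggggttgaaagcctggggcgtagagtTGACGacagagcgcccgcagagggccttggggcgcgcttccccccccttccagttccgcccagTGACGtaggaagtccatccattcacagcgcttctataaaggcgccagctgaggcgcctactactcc
Junb: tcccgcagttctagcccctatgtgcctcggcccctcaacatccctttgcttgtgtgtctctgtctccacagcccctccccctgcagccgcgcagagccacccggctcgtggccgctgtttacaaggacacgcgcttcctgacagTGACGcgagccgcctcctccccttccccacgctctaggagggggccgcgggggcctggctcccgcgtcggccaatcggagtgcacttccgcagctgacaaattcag
Npas4: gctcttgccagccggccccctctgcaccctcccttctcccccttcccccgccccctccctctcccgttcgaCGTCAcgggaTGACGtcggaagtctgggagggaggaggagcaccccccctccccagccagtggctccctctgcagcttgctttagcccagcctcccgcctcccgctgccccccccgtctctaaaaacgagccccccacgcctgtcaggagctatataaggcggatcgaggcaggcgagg
Jun: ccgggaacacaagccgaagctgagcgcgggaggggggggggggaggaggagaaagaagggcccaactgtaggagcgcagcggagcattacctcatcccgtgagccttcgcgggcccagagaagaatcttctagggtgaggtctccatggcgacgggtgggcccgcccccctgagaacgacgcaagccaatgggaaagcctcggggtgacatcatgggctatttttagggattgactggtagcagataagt

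The core TGACG was found on either strand in windows of 6 of the 7 members. It was in 8 of their 11 windows, of which 3 are overlapping Egr2 windows that hold the same matches. Over all 32851 RefSeq windows the share was 20.8%, counted by window and not by gene. Fos held it at 129 to 125 and at 66 to 62 bases before the start, Junb at 106 to 102, and Npas4 at 179 to 175 and at 169 to 165. Fosb and Egr4 held it too, and so did 3 windows of Egr2. The palindrome TGACGTCA, which contains the core, was in 0 member windows and in 1.79% of all windows. A CArG box, the site of serum response factor, was found only in Egr2 among these 7 genes, in 4 of its 5 windows, 3 of which overlap each other (1.63% of all windows). The AP-1 letters TGANTCA were in 0 member windows (7.81% of all), and the Egr letters GCGNGGGCG in the Fosb window alone (5.55% of all). All searches covered both strands. A match is a description of these letters in these windows, and no match says nothing about sites farther away.

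Values below are log2 of the array signal after scaling each array to a common mean and adding 16, so a difference of 1 is a doubling and the change of dim genes is understated. Of the 13 member probe sets, 12 passed the filter on dim signals and were tested. The dimmer of the Egr2 probe sets did not. Array medians lay between 23.5 and 30.5 deposited units, and each array correlated at 0.976 to 0.983 with the array most like it. Hippocampal markers were present in every sample, at 9.52 to 10.72 for Fibcd1 of CA1 neurons, 7.90 to 8.86 for Prox1 of dentate granule cells and 12.72 to 13.46 for Slc17a7 of excitatory neurons. Ttr, a transcript of the neighbouring choroid plexus, ranged from 13.00 to 16.47. These are bulk samples, so fewer cells of a type and less RNA per cell cannot be told apart.

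No member was called in any comparison. Between aged impaired and aged unimpaired samples, 0 of 12 member probe sets passed an adjusted p under 0.05, beside 3 of all 27022 tested, or 0.0111%. For aged unimpaired against young the count was 0 of 12, beside 0.137% of all tested. For aged impaired against young it was 0 of 12, beside 1.63%, and for the aged samples averaged over both groups against young 0 of 12, beside 0.947%. At an unadjusted p under 0.05 stood 0, 0, 3 and 0 members in that order, against 8.09%, 8.19%, 15.8% and 13.4% of all tested probe sets. The lowest adjusted p of a member was 0.618, 0.7195, 0.214 and 0.375 (limma, Benjamini-Hochberg over all tested). The groups overlapped for all 12 probe sets in all 4 comparisons. The share over all tested probe sets was not counted, so this overlap does not set the members apart.

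**Figure D1:**
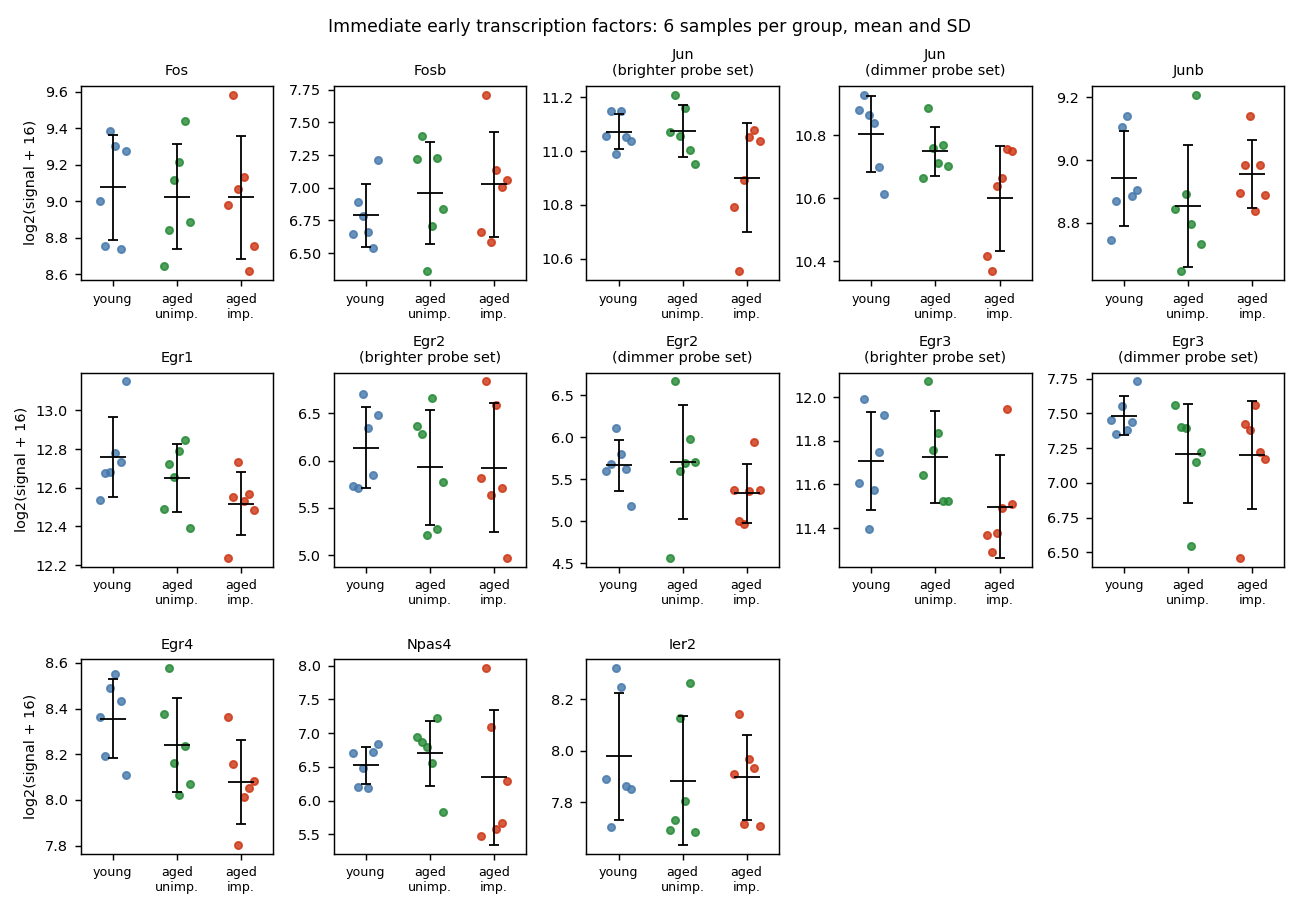
Each panel plots 1 of the 13 member probe sets on a log2(signal + 16) axis, with 6 points for young (blue), 6 for aged unimpaired (green) and 6 for aged impaired (red) samples, and bars for the mean and SD; panels have their own scales. The groups overlap in every tested panel, and Npas4 in the aged impaired samples is the most spread, from 5.47 to 7.96.

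The Fos family encodes the AP-1 partners that must pair with a Jun protein to bind DNA. Fos itself had a lowest, median and highest log2 value of 8.62, 9.02 and 9.59 in aged impaired samples, 8.64, 9.00 and 9.44 in aged unimpaired samples, and 8.74, 9.14 and 9.39 in young samples. The groups covered nearly the same range. Means were 9.02 ± 0.34, 9.02 ± 0.29 and 9.08 ± 0.29 (SD, n = 6). The difference of aged impaired from aged unimpaired was -0.0021 ± 0.17 (SE, adjusted p = 0.999), with a 95% interval of -0.35 to 0.35, so these arrays do not resolve a Fos difference inside those bounds. Against young it was -0.056 ± 0.17 for aged impaired and -0.053 ± 0.17 for aged unimpaired samples.

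Fosb, whose truncated protein accumulates with repeated neuronal activity, had a lowest, median and highest value of 6.58, 7.03 and 7.71 in aged impaired, 6.36, 7.03 and 7.40 in aged unimpaired and 6.54, 6.72 and 7.21 in young samples. The highest sample was aged impaired replicate 2 and the lowest aged unimpaired replicate 3. Its difference between the aged groups was 0.068 ± 0.19 (adjusted p = 0.952), and between aged impaired and young 0.24 ± 0.19 (adjusted p = 0.593).

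Jun, the AP-1 subunit that can also pair with itself, was read by a brighter and a dimmer probe set, names that refer only to signal. On the brighter one the lowest, median and highest values were 10.55, 10.96 and 11.08 in aged impaired samples, 10.95, 11.06 and 11.21 in aged unimpaired samples, and 10.99, 11.05 and 11.15 in young samples. Aged impaired replicates 1, 2 and 3 lay below every sample of the other groups, and the other 3 aged impaired samples lay among them. The difference between the aged groups was -0.17 ± 0.08 (unadjusted p = 0.0505, limma, adjusted p = 0.618), with 5 of 6 impaired samples below the unimpaired mean. On the dimmer probe set it was -0.15 ± 0.08 (adjusted p = 0.663). Against young, the dimmer probe set gave -0.20 ± 0.08 in aged impaired samples (unadjusted p = 0.0199, limma, adjusted p = 0.214), with all 6 below the young mean. The Jun probe sets correlated over the samples at r = 0.75 after removal of group means (rho = 0.73, permutation p = 0.00164, adjusted p = 0.00492 over the 3 genes with several probe sets; r = 0.60 without the 2 most extreme samples).

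Junb, which can restrain Jun at shared sites, lay between 8.65 and 9.21 over the 18 samples. Its mean was 8.96 ± 0.11 in aged impaired, 8.85 ± 0.19 in aged unimpaired and 8.94 ± 0.15 in young samples (SD, n = 6). The difference between the aged groups was 0.10 ± 0.09 (adjusted p = 0.807), 1 of 3 positive member differences in that comparison.

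Ier2, a short-lived nuclear protein induced with Fos by growth signals, had means of 7.90 ± 0.16, 7.88 ± 0.25 and 7.98 ± 0.25 (SD, n = 6), given for the impaired, the unimpaired and then the young samples. Its highest values were those of young replicates 3 and 4, at 8.32 and 8.25, and aged unimpaired replicate 5, at 8.26. The difference between the aged groups was 0.012 ± 0.13 (adjusted p = 0.991).

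Egr1, a zinc finger factor tied to lasting synaptic plasticity, had a lowest, median and highest value of 12.24, 12.54 and 12.73 in aged impaired samples, 12.39, 12.69 and 12.85 in aged unimpaired samples, and 12.54, 12.71 and 13.15 in young samples. The deposited signals behind these ran from 1443.4 to 2721.0. Young replicate 6 was the highest sample and aged impaired replicate 1 the lowest. Means stood in the order young, aged unimpaired, aged impaired, at 12.76 ± 0.21, 12.65 ± 0.18 and 12.52 ± 0.16 (SD, n = 6), and each step in that order was smaller than the SD within a group. The whole span from young to aged impaired was -0.24 ± 0.11 (unadjusted p = 0.0355, limma, adjusted p = 0.274), with all 6 impaired samples below the young mean. For impaired against unimpaired the difference was -0.13 ± 0.11 (adjusted p = 0.781).

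Egr4, also known as NGFI-C, had a lowest, median and highest value of 7.80, 8.07 and 8.36 in aged impaired samples, 8.02, 8.20 and 8.58 in aged unimpaired samples, and 8.11, 8.40 and 8.55 in young samples. Its means followed the same order as those of Egr1, at 8.36 ± 0.17, 8.24 ± 0.21 and 8.08 ± 0.18 (SD, n = 6) from young to aged impaired. Aged impaired differed from young by -0.28 ± 0.11 (unadjusted p = 0.0202, limma, adjusted p = 0.215), with 5 of 6 impaired samples below the young mean. After removal of group means Egr1 and Egr4 correlated at r = -0.42 over 18 samples (rho = -0.37, permutation p = 0.103, adjusted p = 0.375), and at -0.26 without young replicate 6 (adjusted p = 0.665). That r was -0.94 in the impaired, 0.088 in the unimpaired and -0.52 in the young group.

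Egr3, a relative of Egr1 that synaptic input also induces, gave different pictures on its probe sets. The brighter one had a lowest, median and highest value of 11.29, 11.44 and 11.95 in aged impaired samples, 11.53, 11.70 and 12.07 in aged unimpaired samples, and 11.40, 11.68 and 11.99 in young samples. Of the 6 aged impaired samples 5 lay below every aged unimpaired sample, and replicate 5, at 11.95, lay above all but 1 of them. The difference between the aged groups was -0.23 ± 0.13 (adjusted p = 0.674). The dimmer probe set gave -0.0084 ± 0.17 for that comparison, and its lower means were shared by both aged groups, 7.20 ± 0.39 and 7.21 ± 0.36 against 7.48 ± 0.14 in young samples (SD, n = 6; aged mean minus young -0.28 ± 0.15, adjusted p = 0.441). Over the samples the Egr3 probe sets correlated at r = 0.022 (rho = 0.038, permutation p = 0.939).

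Egr2, also known as Krox20 and needed for myelination in peripheral nerve, was close to background. On the tested probe set its values ran from 4.97 to 6.84, and on the one left out by the filter from 4.56 to 6.67, while 3 probe sets for a bacterial control transcript ran from 4.06 to 5.43. The difference between the aged groups on the tested probe set was -0.0018 ± 0.31, with a 95% interval of -0.66 to 0.65. The Egr2 probe sets correlated at r = -0.11 over the samples (rho = -0.058, permutation p = 0.696, adjusted p = 0.939).

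Npas4, an activity-dependent factor that directs inhibitory synapse formation, was the member with the widest spread. Its lowest, median and highest values were 5.47, 5.99 and 7.96 in aged impaired samples, 5.83, 6.83 and 7.23 in aged unimpaired samples, and 6.19, 6.59 and 6.83 in young samples. Aged impaired replicates 1, 4 and 5, at 5.47, 5.57 and 5.67, were the lowest of all 18 samples, and replicate 2 of the same group was the highest. Replicates 1, 4 and 5 had deposited signals of 8.5, 9.5 and 10.5, close to background. The bacterial control probe sets ran from 4.06 to 5.43 in log2. The SD was 1.00 in aged impaired, 0.48 in aged unimpaired and 0.28 in young samples (n = 6). Whether the SD differed between groups was not tested. The means differed by -0.36 ± 0.35 between the aged groups (adjusted p = 0.823), with a 95% interval of -1.10 to 0.38.

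**Figure D2:**
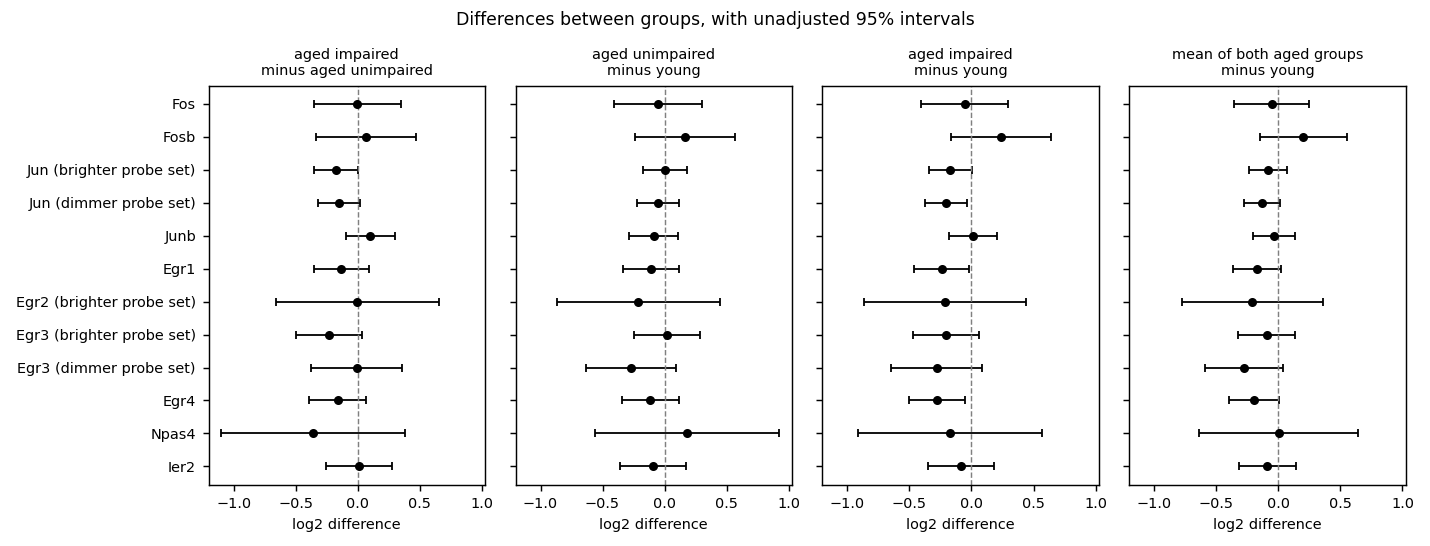
Points are log2 differences of the 12 tested member probe sets in each of the 4 comparisons, and lines are 95% intervals without adjustment for the number of tests. The intervals of the dimmer Jun probe set, Egr1 and Egr4 leave out 0 in aged impaired minus young, and the interval of Npas4 in the first panel reaches from -1.10 to 0.38.

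As a group, 9 of 12 member probe sets had a lower mean in aged impaired than in aged unimpaired samples, with a median difference of -0.07, against 0.01 over all tested probe sets. In aged impaired against young samples 10 of 12 were lower, with a median of -0.19, against -0.01 over all tested. For aged unimpaired against young 8 were lower (median -0.07), and for the mean of both aged groups 10 were lower (median -0.09), against -0.01 over all tested in each. The comparisons share samples, probe sets of Jun and of Egr3 share a gene, and no member passed the test, so these are descriptions of the means. The SD of Npas4 within groups exceeded that of 97.4% of all tested probe sets and that of Egr2 95.3%. For Fosb the figure was 78.6%, for the dimmer Egr3 probe set 72.5% and for Fos 70.4%. Junb stood at 28.0%, and the Jun probe sets at 19.4% and 16.5%, among the steadier transcripts. The mean log2 value over the 18 samples was 6.52 for Npas4 and 5.997 for Egr2, against 11.02 and 10.72 for the Jun probe sets. Fos and Junb had closer means, 9.04 and 8.92. Spread was ranked over probe sets of all levels, so whether these ranks reflect the gene or its signal level was not tested.

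The highest correlation between members was that of Fos with Ier2, although no pair passed the correction. The correlation of each pair of members was taken over the 18 samples after removal of group means, on the tested probe set of highest mean of each gene. Of 45 pairs, 26 were positive with a median r of 0.14, 6 had an unadjusted permutation p under 0.05, and 0 passed after Benjamini-Hochberg adjustment. Fos and Ier2 had r = 0.73 (rho = 0.68, permutation p = 0.00141, adjusted p = 0.0635), and r = 0.62 without the 2 samples of most extreme Fos. Within the groups their r was 0.62 in aged impaired, 0.82 in aged unimpaired and 0.78 in young samples. Over 22 alternatives r stayed between 0.67 and 0.80, and the pair passed in 5 of them. Among these passes was the block for sample numbers, whose permutation p tends to be too small.

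Junb and Ier2 had r = 0.66 (rho = 0.59, permutation p = 0.00774, adjusted p = 0.116), made of 0.86 and 0.85 in aged unimpaired and young samples and -0.26 in aged impaired samples. Jun and the brighter Egr3 probe set had r = 0.65 (rho = 0.69, permutation p = 0.00598, adjusted p = 0.116), with 0.71 within the impaired, 0.94 within the unimpaired and 0.44 within the young samples. Fos and Junb had r = 0.51 (rho = 0.47, permutation p = 0.0351, adjusted p = 0.278). Fos had a negative correlation with Jun, r = -0.55 (rho = -0.46, permutation p = 0.0349, adjusted p = 0.278), and with Egr3, r = -0.53 (rho = -0.58, permutation p = 0.0371, adjusted p = 0.278). Without aged impaired replicate 2 the r of Fos with Jun was -0.28 (adjusted p = 0.703). With sample numbers as a block it was -0.78 and passed (permutation, adjusted p = 0.0128), the single pass among 22 alternatives. The permutations for the block ignored the sample numbers, so that p tends to be too small.

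**Figure D3:**
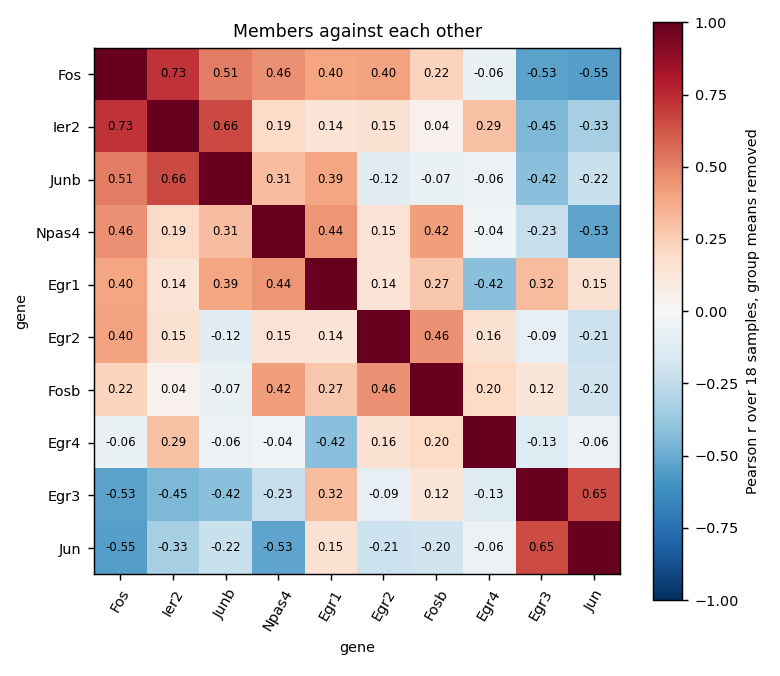
Each cell holds the Pearson r of 2 members over 18 samples after removal of group means, with red for positive and blue for negative values. Fos, Ier2 and Junb form 1 positive block (0.73, 0.66 and 0.51), Jun and Egr3 another (0.65), and the values between these blocks are negative.

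**Figure D4:**
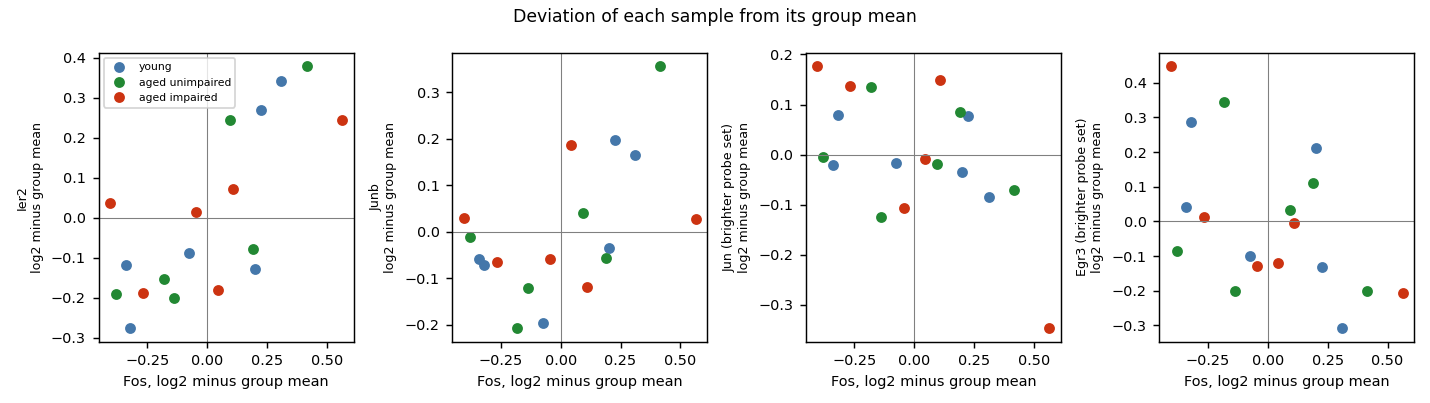
Each point is 1 of 18 samples, coloured by group, with its log2 deviation from the group mean for Fos on the horizontal axis and for Ier2, Junb, Jun or Egr3 on the vertical axis. Ier2 climbs with Fos in all 3 groups (r = 0.73), and the slope of Jun rests largely on 1 aged impaired sample at the lower right.

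That sample, aged impaired replicate 2, was the highest of its group for Fos (9.59), Fosb (7.71), the brighter Egr2 probe set (6.84), Npas4 (7.96) and Ier2 (8.14). It was the lowest of its group for both Jun probe sets (10.55 and 10.37) and for the brighter Egr3 probe set (11.29). Its mean over the CA1 neuron markers, 10.56, and over the dentate granule cell markers, 9.42, were also the lowest of the group, and its means over the microglia markers, 10.39, and the astrocyte markers, 12.46, the highest. Its 3' to 5' log2 signal ratio, a sign of RNA quality, was the highest of the group too, at 0.37. That ratio was higher still in aged unimpaired replicates 4, 5 and 6 (0.41, 0.39 and 0.43) and in young replicate 3 (0.42).

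The markers of cell types were set beside the members, and their part in the values above was not tested. Of 110 correlations between the 10 members and 11 array measures (10 marker lists and the 3' to 5' signal ratio), 15 had an unadjusted permutation p under 0.05 and 0 passed. Egr3 had r = -0.78 with astrocyte markers (rho = -0.76, permutation p = 0.00059, adjusted p = 0.0622) and r = 0.73 with CA1 markers (rho = 0.85, permutation p = 0.00267, adjusted p = 0.0979). Jun had r = 0.76 with dentate granule cell markers (rho = 0.71, permutation p = 0.00113, adjusted p = 0.0622). With CA1 markers Jun had r = 0.65 (rho = 0.48, permutation p = 0.0049, adjusted p = 0.135) and Fos r = -0.58 (rho = -0.58, permutation p = 0.0210, adjusted p = 0.273). Jun had r = -0.47 with the 3' to 5' ratio (rho = -0.53, permutation p = 0.0275, adjusted p = 0.273). Without the 2 most extreme samples these 6 values were -0.60, 0.73, 0.67, 0.36, -0.63 and -0.54. The rest of the 15 included Egr3 with microglia (r = -0.57), choroid plexus (-0.56) and myelin markers (-0.54). Junb had r = 0.62 with myelin markers and Fos 0.56 with astrocyte markers. The last were Jun with microglia (-0.55), Egr1 with choroid plexus (-0.54), Egr4 with neocortex (-0.52) and Fosb with dentate granule cell markers (-0.51). Several lists had means on 1 side in aged impaired against aged unimpaired samples, with 0 markers called in any list. All 15 tested choroid plexus markers were higher (median difference 0.83, 0 at an unadjusted p under 0.05, limma), as were all 6 thalamus markers (0.17, 3 at that p) and 9 of 11 myelin markers (0.28, 4 at that p). All 7 tested CA1 markers were lower (-0.26, 4 at that p), as were 7 of 8 general neuronal markers (-0.079, 3 at that p). The mean log2 value of the CA1 markers per sample ran from 10.56 to 10.91 in aged impaired, from 10.80 to 11.12 in aged unimpaired and from 10.71 to 11.05 in young samples. The dentate granule cell markers ran from 9.42 to 10.08, from 9.52 to 9.92 and from 9.65 to 10.15, and the astrocyte markers from 12.13 to 12.46, from 12.22 to 12.39 and from 12.11 to 12.39 in the same order.

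The kinases, channels and factors that lead to these promoters gave 1 call among 30 tested genes of a list of 37. Elk3, a partner of serum response factor, rose on its probe set of highest mean, by 0.38 ± 0.08 in aged impaired against young (adjusted p = 0.0207) and 0.38 ± 0.07 for the mean of both aged groups (adjusted p = 0.00981), with all 12 aged samples above the young mean. In aged unimpaired samples alone the difference was 0.38 ± 0.08 (adjusted p = 0.0662). Other Elk3 probe sets gave 0.26 ± 0.29 and 0.03 ± 0.14 for the aged mean and were not called. The rise in aged impaired samples lost its call without young replicate 6 (adjusted p = 0.0536), without the filter (0.0587), when sample numbers served as a block (0.0579) and when only those groups were fitted (0.0682). Beside this call stood, in aged impaired against young samples, a rise of 7 of 11 microglia markers (median difference over the list 0.63), of 3 of 11 myelin markers (0.32) and of 1 of 8 astrocyte markers (0.11), while 7 of 10 endothelial markers had a higher mean and 0 were called (0.19, 3 at an unadjusted p under 0.05, limma). For the aged mean 6 of 11 microglia markers (0.65), 0 myelin and 1 astrocyte marker rose. The part of these markers in the Elk3 call, or in that of Nr4a2 among the nuclear genes, was not tested. Elk4 and Elk1, further partners of serum response factor, gave 0.29 ± 0.08 (adjusted p = 0.0997) and -0.29 ± 0.09 (adjusted p = 0.188) for the aged mean against young. Another Elk4 probe set gave -0.45 ± 0.25, and another Elk1 probe set -0.39 ± 0.09 (adjusted p = 0.0562). Between the aged groups 0 of 30 were called, with 2 at an unadjusted p under 0.05 (limma). The lowest p-values were those of the kinases Mapk9 (-0.21 ± 0.08), Rps6ka3 (-0.24 ± 0.11) and Map2k2 (0.10 ± 0.08), with adjusted p of 0.518, 0.615 and 0.773. Other probe sets gave 0.014 ± 0.09 and -0.15 ± 0.09 for Mapk9, 0.14 ± 0.09 for Rps6ka3 and -0.11 ± 0.21 for Map2k2.

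Of 10 other AP-1 genes and Egr corepressors 7 were tested, and 0 were called in any comparison, with 0 or 1 at an unadjusted p under 0.05 (limma). For impaired against unimpaired Fosl2, a Fos relative, gave -0.21 ± 0.09, Batf3 -0.14 ± 0.21 and Jdp2, an AP-1 repressor, 0.09 ± 0.10. Another Fosl2 probe set gave -0.016 ± 0.18 there. For the aged mean against young that probe set gave -0.40 ± 0.15 (adjusted p = 0.250), and the one of highest mean -0.0051 ± 0.07. For the aged mean against young Batf3 gave 0.49 ± 0.19 (adjusted p = 0.245), Jdp2 0.15 ± 0.08 and Nab2, which represses Egr proteins, 0.05 ± 0.08.

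Among 17 other immediate early nuclear genes, all tested, Nr4a2 was the 1 call. This orphan nuclear receptor fell by 0.46 ± 0.10 in aged impaired against young samples on its probe set of highest mean (adjusted p = 0.0313), with 6 of 6 impaired samples below the young mean. Its other probe sets gave -0.37 ± 0.14, -0.57 ± 0.18 and -0.61 ± 0.16 (adjusted p = 0.211, 0.124 and 0.0567). The call was lost in 11 of 27 alternatives, among them without aged impaired replicate 1, 4 or 6 and without young replicate 1, 2, 3, 5 or 6 (adjusted p from 0.0520 to 0.0761). Between the aged groups Nr4a2 gave -0.35 ± 0.10 (adjusted p = 0.381), Nr4a3 -0.23 ± 0.07 (adjusted p = 0.413) and the repressor Nfil3 -0.32 ± 0.12 (adjusted p = 0.510). The other Nr4a2 probe sets gave -0.22 ± 0.14, -0.061 ± 0.18 and -0.49 ± 0.16 there. For the aged mean against young, Nr4a2 gave -0.28 ± 0.09, Ier3 0.36 ± 0.13 and the CREB family member Crem -0.27 ± 0.10.

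Of 26 effector and feedback genes that neuronal activity also induces, 25 were tested and 0 were called, with 2 to 4 at an unadjusted p under 0.05 in each comparison (limma). In impaired against unimpaired samples the neuropeptide precursor Vgf gave -0.31 ± 0.09 (adjusted p = 0.383), the kinase phosphatase Dusp6 -0.34 ± 0.12 (adjusted p = 0.495) and the kinase Pim1 0.57 ± 0.28 (adjusted p = 0.631). For the aged mean against young Gadd45b gave 0.30 ± 0.12 (other probe sets -0.46 ± 0.18 and 0.075 ± 0.15), the activin subunit Inhba -0.72 ± 0.30 and Tiparp -0.19 ± 0.09.

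Fos also varied with 2 genes of these last lists. It was set against 49 tested genes, those of the AP-1 and corepressor list, the nuclear list and the effector list. Of these correlations 32 were positive with a median r of 0.17, 10 had an unadjusted permutation p under 0.05 and 2 passed. Homer1, a synaptic scaffold with an activity-induced short form, had r = 0.73 (rho = 0.71, permutation p = 0.00196, adjusted p = 0.0480), and r = 0.56 without the 2 most extreme samples. Dusp1, a phosphatase that switches off MAP kinases, had r = 0.72 (rho = 0.72, permutation p = 0.00183, adjusted p = 0.0480), and r = 0.63 without them. This family of correlations was computed after the group comparisons were known. Of 22 alternatives, Homer1 passed in 6 and Dusp1 in 5, with r from 0.64 to 0.80 and from 0.67 to 0.90. The alternatives include the block for sample numbers, whose permutation p tends to be too small. Arc, which marks the same active neurons as Fos, had r = 0.28 (permutation p = 0.272, adjusted p = 0.532), and Nr4a1 r = 0.59 (adjusted p = 0.127). Ptgs2 and Inhba had negative values, -0.58 and -0.54 (adjusted p = 0.156 for both).

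**Figure D5:**
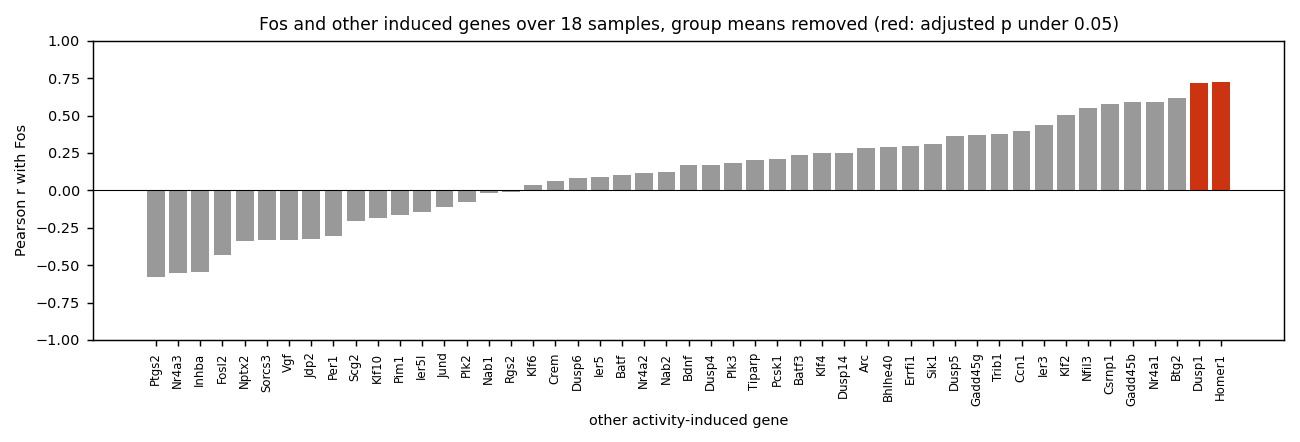
Bars give the Pearson r with Fos of 49 other genes over 18 samples after removal of group means, in rising order. The genes are activity-induced genes and the tested AP-1 relatives and Egr corepressors, and the red bars passed an adjusted p under 0.05. Homer1 (0.73) and Dusp1 (0.72) stand at the right end, Ptgs2 (-0.58) at the left end, and Arc (0.28) in the middle of the positive values.

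Over all 13111 named genes that were ranked, the 10 most like Fos by the same correlation, over 18 samples and given with no test, were Rbm43 (r = 0.83), Cdk2ap2 (0.79), Ap2m1 (0.79), Chn2 (0.79), Dnajb1 (0.79), Parp2 (0.78), Sars (0.78), Pcp4 (0.77), Stmn1 (0.77) and Ncald (0.76). None of these is in the lists of induced genes above. Homer1 stood at rank 23, Dusp1 at rank 29, Nr4a1 at rank 256 and Arc at rank 2672. All these values share the scaling of each array.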

How the data were processed

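The authors deposited linear probe set intensity. MAS5 is the tool that the submitters' processing notes name, without version or genome build. Each deposited array has a 2%-trimmed mean of 150. Arrays carry no count of reads, and precision is limited by their number.

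Signals were rescaled to a trimmed mean of 500 per array and turned into log2(signal + 16). The 64 control probe sets and the dimmest 40% of the others were left out, which left 27022 with a mean above 5.92. Symbols came from the platform annotation (34958 probe sets with 1 symbol), of which 34754 were matched in a RefSeq table of assembly GRCm38.p6. The fit of 3 group means over all 18 samples used limma 3.58.1 (R 4.3.3), checked on simulated data, with Benjamini-Hochberg adjustment and calls at an adjusted p under 0.05, 2-sided. Errors after ± are standard errors unless an SD is named. Correlations used 100000 permutations within groups, 2-sided, in numpy 2.4.6, with ranks from scipy 1.17.1.

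The members, lists, tests and alternatives were chosen with earlier results of these data known. Named beside the members were, from each list of pathway genes, those called and the 3 of lowest p between the aged groups and between the aged mean and young, each on its tested probe set of highest mean. Alternatives were offsets of 1 and 64, quantile normalization, leaving out none or 60% of dim probe sets, a block for sample numbers, fitting only the groups compared, choroid plexus and 3' to 5' covariates, and leaving out each sample. The alternatives for Fos with Homer1 and Dusp1 were added after seeing the data.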

Additional observations from a re-analysis of the deposited data

Results flagged for a closer look

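Single samples stood apart from their group for Egr3, on each of its probe sets and in different samples. On the brighter probe set aged impaired replicate 5 was at 11.95, and the next sample of its group at 11.51. On the dimmer probe set aged impaired replicate 1 was at 6.46, and the next at 7.17. In both cases the gap to the nearest sample, divided by the range of the group (0.67 and 0.65), exceeded Dixon's 95% critical value for 6 samples. There were 39 such groups of a member probe set, and chance flags about 1 in 20.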

How the results depend on the processing

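Every alternative gave 0 called members in all 4 comparisons, with a lowest adjusted p of 0.157, or 0.134 where a sample was left out. Signs of small differences turned. For aged impaired minus aged unimpaired, Fos was 0.010 with the choroid plexus and 0.096 with the 3' to 5' covariate, Egr2 0.0058 with offset 64 and 0.081 with the 3' to 5' covariate, Batf3 0.011 with that covariate, and Ier2 -0.0066 after quantile normalization. For aged unimpaired minus young, Jun was -0.0090 after quantile normalization and -0.026 with the choroid plexus covariate, and Egr3 -0.065 with the latter (brighter probe sets). For the aged mean, Npas4 was -0.039 with offset 1 and -0.012 with the 3' to 5' covariate. The cause was not tested.

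Leaving out single samples also turned signs. Between the aged groups the ranges were -0.11 to 0.081 for Fos, -0.069 to 0.16 for Fosb, -0.18 to 0.19 for Egr2 (tested probe set), -0.14 to 0.14 for Egr3 (dimmer) and -0.036 to 0.088 for Ier2. For aged unimpaired minus young they were -0.14 to 0.023 for Fos, -0.023 to 0.029 for Jun and -0.047 to 0.079 for Egr3 (brighter). For aged impaired minus young they were -0.17 to 0.025 for Fos and -0.026 to 0.053 for Junb, and for the aged mean -0.12 to 0.0076 for Fos, -0.077 to 0.0017 for Junb and -0.16 to 0.090 for Npas4.

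With the replicate block 3 member pairs passed (Fos with Ier2, Fos with Jun, Jun with Egr3), against 0 without it. The permutations for the block shuffled samples within groups and ignored the numbers, so its p-values tend to be too small. No conclusion is drawn from these passes. From 0 to 2 pairs passed when single samples were left out. The labels do not say whether equal numbers pair the samples. After removal of group means over all tested probe sets, 18 same-numbered pairs of samples correlated at -0.25 to 0.10. Their median was -0.0054, against 0.0081 for pairs of different numbers. Of 18 samples, 0 correlated best with a sample of its own number in another group. These values cannot show whether samples were collected or processed in pairs. Counts over all probe sets moved more. Between the aged groups they were 6 with the 60% filter, and 0 with the block and with only the groups compared. For aged unimpaired minus young they were 13 with no filter, 17 with the block, 22 with only the groups compared and 23 with the 3' to 5' covariate. For aged impaired minus young they were 193, 240 and 241 with no filter, the block and only the groups compared, and for the aged mean 131 and 141 with no filter and the block. Without single samples the counts ran from 2 to 4, 16 to 37, 228 to 467 and 116 to 274. The call of Nr4a2 for the aged mean appeared without young replicate 4 (adjusted p = 0.0450). Signal near background limits Egr2 and Npas4.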
